A study of Mus musculus with 27 samples.

Results

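The genes examined here are the positive arm of the circadian clock and the nuclear receptors that act on it: Arntl (also called Bmal1), Clock, Nr1d1 (REV-ERB alpha), Nr1d2 (REV-ERB beta) and Rora (ROR alpha). They are 5 of the 8252 genes that the platform annotation names by 1 symbol. Every probe set carrying 1 of these symbols was taken, which gave 6 probe sets on the array, 1 for each gene and 2 for Rora. All came from NIH/3T3, a long-established line of fibroblasts from mouse embryos, measured on 27 Affymetrix mouse U74v2 arrays. Each culture had been stepped down in serum and then given 15 µM forskolin, which activates adenylyl cyclase and raises cyclic AMP, for 2 h in medium without serum. The drug was rinsed off and the cells stayed without serum. The 9 groups were the times of harvest, from 0 h at the end of the pulse to 48 h in steps of 6 h, and each held 3 arrays, 1 from each of 3 experiments that the labels call biological replicates. Every array, those at 0 h included, came from cells that had received the pulse, and cultures without it were not analysed here. All samples derive from this single cell line.

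In the mammalian clock ARNTL and CLOCK form a dimer of bHLH-PAS proteins that binds E-boxes and switches on the Per and Cry genes, whose products then repress the dimer. The same dimer switches on Nr1d1, Nr1d2 and the Ror genes. Their products compete for the ROR element in target promoters, Arntl among them: REV-ERB proteins recruit the NCOR1 and HDAC3 corepressor complex and silence the gene, while ROR proteins activate it. In many tissues Arntl transcripts therefore peak in antiphase to those of Nr1d1 and Nr1d2, and Clock transcripts vary little.

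The promoters of the receptor genes and of Arntl are shown because the receptors and the ARNTL dimer are known to act on these genes. They are RefSeq windows on build GRCm38.p6, from 250 bases before a transcript start to 50 bases after it, given 5′ to 3′ on the strand of the gene, with the motif matches in capitals. For Arntl the window is the second of its pair of annotated starts, at chr7:113207261-113207560 on the plus strand. Those for Nr1d1 (chr11:98775328-98775627, minus strand), Nr1d2 (chr14:18239057-18239356, minus strand) and Rora (chr9:68653536-68653835, plus strand) belong to single annotated starts.
Arntl: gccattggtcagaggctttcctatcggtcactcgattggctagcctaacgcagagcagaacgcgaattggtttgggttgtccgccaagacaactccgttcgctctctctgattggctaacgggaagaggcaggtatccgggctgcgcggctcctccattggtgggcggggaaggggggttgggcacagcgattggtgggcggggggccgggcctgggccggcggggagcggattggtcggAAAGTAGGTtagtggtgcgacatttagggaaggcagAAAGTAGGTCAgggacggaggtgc
Nr1d1: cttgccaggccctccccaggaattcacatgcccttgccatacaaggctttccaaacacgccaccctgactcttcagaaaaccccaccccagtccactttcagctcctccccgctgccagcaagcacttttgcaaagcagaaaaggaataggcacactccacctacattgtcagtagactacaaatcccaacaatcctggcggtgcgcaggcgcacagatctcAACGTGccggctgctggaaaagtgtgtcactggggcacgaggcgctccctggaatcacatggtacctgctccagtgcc
Nr1d2: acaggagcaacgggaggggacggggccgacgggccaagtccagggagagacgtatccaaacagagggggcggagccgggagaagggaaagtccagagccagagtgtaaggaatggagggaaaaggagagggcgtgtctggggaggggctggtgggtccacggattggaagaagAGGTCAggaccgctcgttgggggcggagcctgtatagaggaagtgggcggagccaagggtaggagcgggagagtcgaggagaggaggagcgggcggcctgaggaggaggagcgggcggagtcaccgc
Rora: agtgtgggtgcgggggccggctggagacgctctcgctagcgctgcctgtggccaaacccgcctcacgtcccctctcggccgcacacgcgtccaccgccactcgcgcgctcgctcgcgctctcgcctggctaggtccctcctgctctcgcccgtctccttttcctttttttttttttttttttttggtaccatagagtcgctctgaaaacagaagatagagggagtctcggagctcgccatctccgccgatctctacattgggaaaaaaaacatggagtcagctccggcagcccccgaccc

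Both strands were searched for the E-box CACGTG, its variant CACGTT, the receptor hexamer AGGTCA, the longer ROR element start AAAGTAGGT, and the cyclic AMP element as TGACG and as TGACGTCA. The longer ROR letters were chosen after the Arntl sequence had been read, so their match there is a description. In the Arntl window AAAGTAGGT began at position -10 and again at 27 from the start. The second copy ran into an AGGTCA match at position 32, and the 2 matches overlap. Of 32851 mouse promoter windows of 300 bases, 60 held AAAGTAGGT, or 0.183%, and 16.3% held AGGTCA. Nr1d1 held the CACGTT variant at position -28, read as AACGTG on the strand of the gene, which 4.69% of windows hold. Nr1d2 held AGGTCA at position -77. The Rora window held none of the letters searched. Neither CACGTG (7.15% of windows), TGACG (20.8%) nor TGACGTCA (1.79%) occurred in the printed windows. Of the 3 Clock windows, 1 held AGGTCA, at position -119.

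The arrays carried fibroblast RNA: all 12 fibroblast markers on the array passed the filter on low values, which kept 7453 of 12488 probe sets. Their median was the 99.1 percentile of all probe sets, with a range from 46.0 (Vim) to 99.7. Of the markers of other cell types, 2 of 7 for epithelium, 1 of 6 for endothelium, 2 of 6 for leukocytes, 3 of 6 for muscle and 4 of 7 for neurons and glia passed the same filter. The medians of these types lay between the 15.9 percentile (epithelium) and the 47.1 percentile (neurons and glia). The highest single markers among them were Tubb3 of neurons, at the 90.9 percentile, and Cdh1 of epithelium, at 71.3. Array medians of the deposited intensities lay between 166.8 and 200.65. Arrays from the same experiment deviated together. When each array was compared with the mean profiles of the other 2 experiments, 26 of 27 were most like their own or a neighbouring time. Only 13 were most like their own time. The exception to the 26 was experiment 1 at 18 h, which was most like 30 h (r = 0.16, across 7453 probe sets). Its r was 0.150 to 36 h and 0.097 to its own time. Experiment 1 at 30 h was most like 24 h (r = 0.105, against 0.0853 to its own time and 0.0830 to 18 h). On these 2 arrays Arntl, Nr1d1 and Nr1d2 lay on the other side of their experiment mean from the same times in experiment 2. Whether these 2 samples carry their right times was not tested. If they had been exchanged, every value given here for experiment 1 at 18 h would belong to 30 h and the reverse. The labels were kept as deposited, and results for these genes are given with and without the 2 arrays. The arrays were singled out with the values of Arntl, Nr1d1 and Nr1d2 on them known, so a smaller spread or a closer match between experiments for these genes without them follows from that choice and is given as a description.

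Of the 6 probe sets, 5 passed the filter on low values and entered the tests. All values tested were log2 of intensity plus a pseudocount of 12.1, so a change is on that scale and understates that of dim probe sets. Changes were called at an adjusted p below 0.05 with limma and Benjamini-Hochberg adjustment over 7453 probe sets. The F test over the 9 times called 1 of the 5 probe sets, Rora, against 7.3% of all probe sets. Of the 40 changes from 0 h that the 5 probe sets gave, 7 were called, all of Rora and all higher, against 7.22% of all such changes. With the experiment as a block, which removes the differences in level between experiments, the same counts were 1 and 7, against 26.4% of all probe sets and 18.7% of all changes from 0 h. The 8 changes from 0 h share the 0 h arrays.

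**Figure D1:**
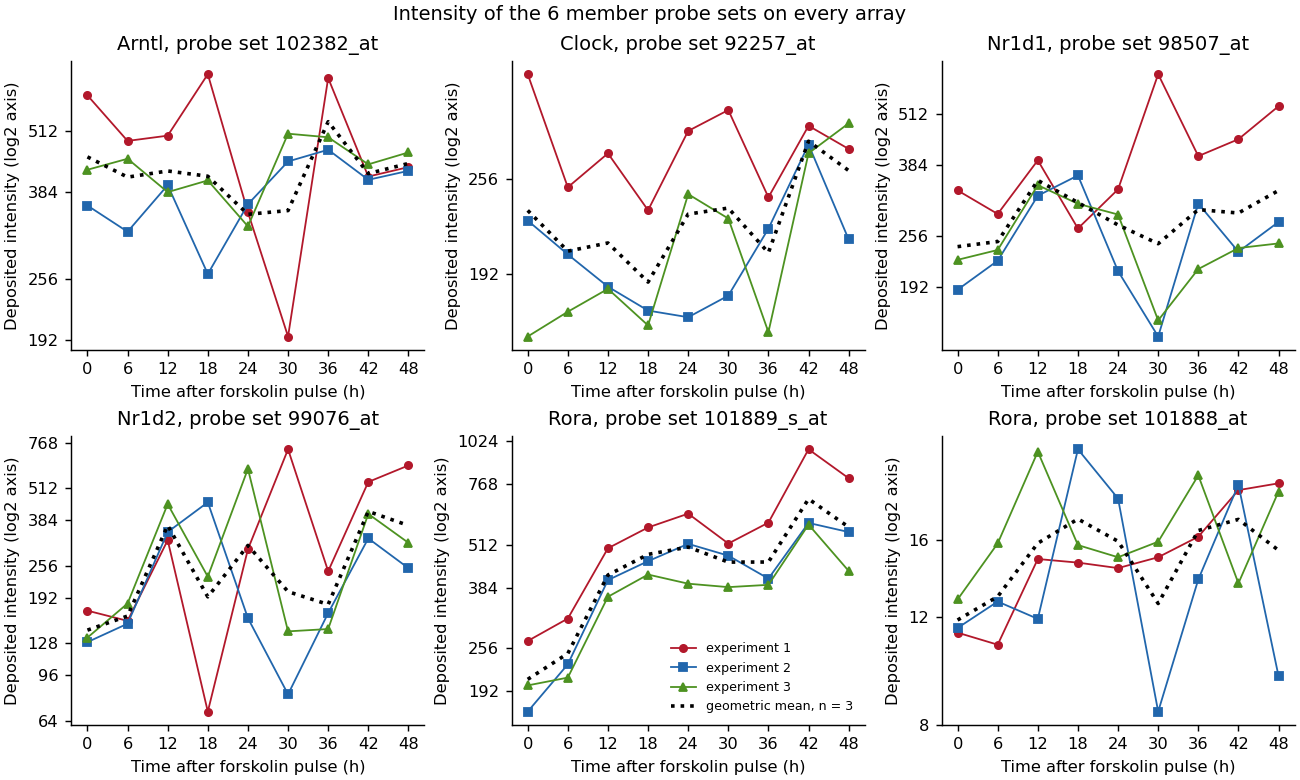
Deposited intensity on a log2 axis against hours after the forskolin pulse, 1 panel per probe set, for experiments 1 (circles), 2 (squares) and 3 (triangles), with the geometric mean of 3 arrays dotted. Rora 101889_s_at climbs in every experiment to its highest value at 42 h, while Nr1d2 in experiment 1 sits at 69.4 at 18 h and 724.2 at 30 h.

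Rora, the activating receptor, rose after the pulse and stayed high. Its brighter probe set, 101889_s_at, read 269.0, 312.5, 499.9, 574.4, 629.9, 515.9, 593.2, 968.5 and 798.2 at the 9 successive times in experiment 1. In experiment 2 it read 167.8, 230.2, 404.1, 458.6, 514.8, 475.8, 408.1, 592.1 and 557.1. In experiment 3 it read 199.9, 210.6, 361.5, 419.3, 394.5, 385.5, 391.5, 585.5 and 429.6. The 3 arrays at 0 h and the 3 at 6 h overlapped, and every array from 12 h on was above all of them. The highest array of each experiment was that at 42 h, 3.60, 3.53 and 2.93 times the lowest, which was at 0 h each time. The suffix of this probe set marks, in the naming of the manufacturer, probes that can match more than 1 transcript, so its value may not come from a single Rora isoform.

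Relative to 0 h, Rora differed by 0.20 ± 0.24 (SE, n = 3 per time) on the log2 scale at 6 h, which was not called (limma adjusted p = 0.763, where 6.09% of probe sets were). At 12 h it was 0.93 ± 0.24 higher (adjusted p = 0.0145), against 8.33% of probe sets called. The rise was 1.12 at 18 h (adjusted p = 0.00371), 1.19 at 24 h (adjusted p = 0.00249), 1.06 at 30 h (adjusted p = 0.00664) and 1.05 at 36 h (adjusted p = 0.00680), where 7.54%, 6.92%, 6.59% and 7.33% of probe sets were called. It was largest at 42 h, 1.64 ± 0.24 (adjusted p = 7.01e-05; background 7.08%), and stood at 1.38 at 48 h (adjusted p = 0.000462; background 7.9%). The direction was the same in 3 of 3 experiments at each of these times. The F test over time gave an adjusted p of 0.000573, rank 103 of 7453. With the experiment as a block the standard error of these changes was 0.13. The limma adjusted p was then 1.67e-05 at 12 h and 5.08e-09 at 42 h. For the blocked F test it was 4.08e-08, rank 22. Without experiment 2 the change at 42 h was the only one called (adjusted p = 0.0228), and the F test no longer called Rora. Without experiment 3 those at 24, 42 and 48 h were called, and again not the F test. Both of these fits were made without the block, and neither was repeated with it.

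In the order of mean intensity the times ran from 0 h (212 ± 51.7, SD, n = 3) and 6 h (251 ± 54.1) through 12 h (422 ± 70.9), 30 h (459 ± 66.8), 36 h (464 ± 112), 18 h (484 ± 80.6), 24 h (513 ± 118) and 48 h (595 ± 187) to 42 h (715 ± 219). The steps between neighbouring times were compared after the values had been seen. None of the 35 steps of the 5 probe sets was called without the block, against 0.00192% of all steps. Before adjustment 2 of the 35 had a limma p below 0.05. The share of all probe sets below 0.05 before adjustment was not counted for steps, differences 1 day apart or opposite phases. Such counts of members therefore have no background beside them. With the experiment as a block 1 step was called, against 0.0997% of all steps: Rora from 6 h to 12 h, 0.73 ± 0.13 (limma adjusted p = 0.0118), in 3 of 3 experiments. The step from 36 h to 42 h was 0.59 ± 0.13 with the block and was not called (adjusted p = 0.338).

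**Figure D2:**
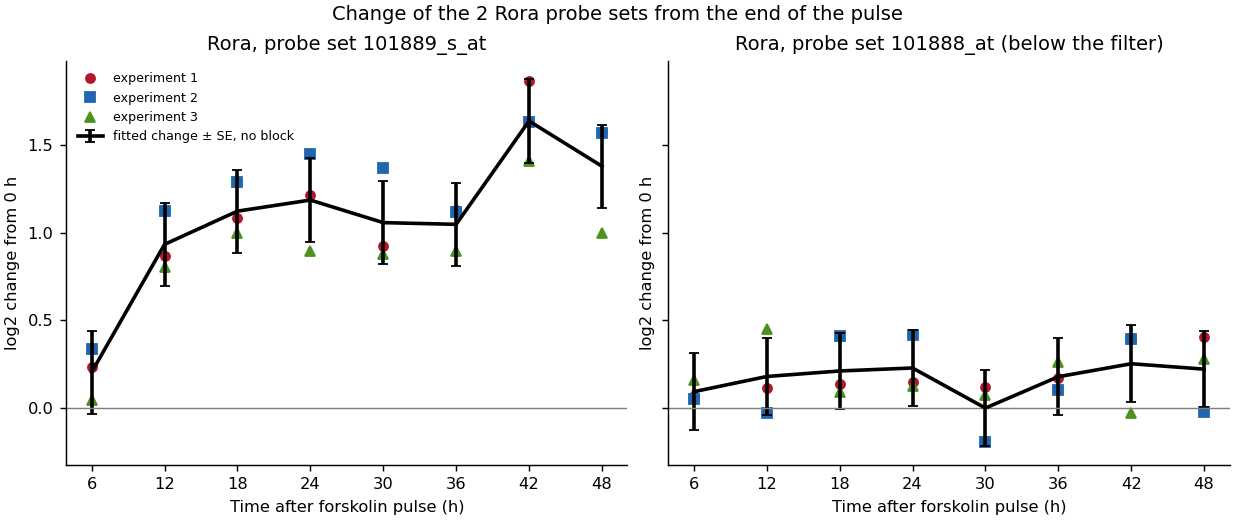
Log2 change from 0 h against hours after the pulse for the 2 Rora probe sets, as single experiments (symbols) and as the fitted change with its standard error (line). The bright probe set rises to 1.64 at 42 h, while the dim one stays at or below 0.25 in the fitted change.

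The other Rora probe set, 101888_at, was dim, with intensities from 8.4 to 22.5 over the 27 arrays and a mean at the 9.94 percentile, and did not pass the filter. In a fit without the filter its changes from 0 h lay between 0.00 and 0.25 ± 0.22, and none was called (the smallest limma adjusted p was 0.770, at 42 h). At this brightness, close to the pseudocount, the scale compresses any change. The rise of Rora therefore rests on 1 of its 2 probe sets.

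A course that repeats each day gives no difference between times 1 day apart. Of the 20 such differences of the 5 probe sets, 0 were called by limma without the block, against 0.242% of all. Before adjustment 3 of the 20 were below 0.05. With the block 1 was called, against 2.7% of all: Rora at 30 h was 0.85 ± 0.13 above 6 h (adjusted p = 0.000332, where 7.14% of probe sets were called), after an adjusted p of 0.0952 without the block. The differences of 36 h from 12 h (0.11), 42 h from 18 h (0.51) and 48 h from 24 h (0.19) were not called in either fit. Between opposite phases, 1 of 10 differences had an unadjusted limma p below 0.05 without the block. None of the 10 was called there, against 0.047% of all. In the blocked fit 1 was, against 2.56% of all: the mean Rora value at 18 and 42 h exceeded that at 6 and 30 h by 0.75 ± 0.09 (adjusted p = 7.10e-05, where 5.07% of probe sets were called), after 0.0652 without it. From 6 h to 48 h Rora gained 0.42 ± 0.12 per day as a linear trend (limma adjusted p = 0.0318, or 0.000650 with the block), the only trend called among the 5, against 6.13% of all probe sets and 17.1% with the block. In fits without the block the trend lost its call without experiment 2 (adjusted p = 0.192), without experiment 3 (adjusted p = 0.146) or without the filter on low values (adjusted p = 0.0516).

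Nr1d2, a repressor at ROR elements, had the widest swings of the 5 tested probe sets within each experiment. Probe set 99076_at read 171.1, 156.2, 321.3, 69.4, 296.3, 724.2, 243.4, 540.8 and 626.7 in experiment 1. In experiment 2 it read 129.2, 152.3, 345.6, 451.0, 160.0, 81.0, 167.5, 326.5 and 250.2. In experiment 3 it read 134.5, 182.4, 443.6, 231.9, 608.0, 142.2, 145.2, 406.4 and 313.9. The ratio of highest to lowest array was 10.4 in experiment 1, 5.57 in experiment 2 and 4.52 in experiment 3. All arrays at 12 h and at 42 h were above all arrays at 0 h and 6 h. Experiment 1 ran against experiment 2 at 18 h and 30 h: its lowest array was at 18 h, where experiment 2 had its highest, and its highest was at 30 h, where experiment 2 had its lowest. Experiment 3 was low at 30 h like experiment 2, but at 18 h it was below its values at 12 h and 24 h, as experiment 1 was, and it had its peak at 24 h.

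Over all 27 arrays no change of Nr1d2 from 0 h was called. The differences were 1.25 ± 0.58 at 12 h (limma adjusted p = 0.227), 1.41 at 42 h (adjusted p = 0.172) and 1.29 at 48 h (adjusted p = 0.216), each with 1 sign in 3 of 3 experiments. The F test gave an adjusted p of 0.527, and 0.244 with the block. Without experiment 1 at 18 h and 30 h the standard error was 0.36, a fall that the choice of arrays sets for this gene, and those 3 changes were called: 1.26 at 12 h (adjusted p = 0.0351), 1.42 at 42 h (adjusted p = 0.0188) and 1.29 at 48 h (adjusted p = 0.0301). The F test then gave an adjusted p of 0.0153. With the block added, 18 h (1.20 ± 0.38, adjusted p = 0.0346, in 2 of 2 experiments) and 24 h (1.01 ± 0.33, adjusted p = 0.0390) were called as well, and so was the mean of 18 and 42 h above that of 6 and 30 h (1.36 ± 0.26, adjusted p = 0.0135).

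Nr1d1, the other REV-ERB gene, moved over a smaller range. Probe set 98507_at read 332.1, 290.4, 394.1, 267.4, 334.1, 643.2, 403.6, 444.3 and 536.1 in experiment 1. In experiment 2 it read 188.7, 222.6, 322.2, 361.5, 209.8, 144.6, 308.0, 234.2 and 277.5. In experiment 3 it read 223.7, 236.6, 342.1, 307.7, 289.5, 158.5, 212.3, 239.2 and 245.6. The mean log2 level was 8.61 in experiment 1, against 8.03 and 8.05 in experiments 2 and 3. At 30 h experiment 1 had its highest array and experiments 2 and 3 their lowest. No change from 0 h was called over all arrays: the largest were 0.49 ± 0.37 at 12 h (limma adjusted p = 0.531) and 0.42 at 48 h (adjusted p = 0.630), both higher in 3 of 3 experiments. Without experiment 1 at 18 h and 30 h and with the block, the F test called it (adjusted p = 0.0131), as did 18 h against 0 h (0.61 ± 0.20, adjusted p = 0.0427) and the mean of 18 and 42 h against that of 6 and 30 h (0.62 ± 0.14, adjusted p = 0.0279), each in 2 of 2 experiments. Without those arrays and without the block none of these passed. Over all arrays the F test did not call Nr1d1 (limma adjusted p = 0.727 with the block). The arrays were left out with the Nr1d1 values on them known. A closer match of the remaining experiments follows from that choice, and these calls are given as a description.

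Arntl, the activator that the receptors regulate, ran the other way. Probe set 102382_at read 603.9, 487.9, 500.1, 666.9, 349.3, 195.2, 655.0, 412.9 and 431.6 in experiment 1. In experiment 2 it read 360.5, 318.9, 396.6, 261.6, 362.7, 443.2, 468.2, 406.7 and 424.1. In experiment 3 it read 426.3, 448.8, 383.9, 405.5, 327.0, 504.7, 496.3, 437.2 and 462.3. Experiment 1 was highest at 18 h and lowest at 30 h, while experiment 2 was lowest at 18 h and experiment 3 highest at 30 h. The spread was wide at 18 h (445 ± 205, SD, n = 3) and 30 h (381 ± 164) and narrow at 42 h (419 ± 16.1) and 48 h (439 ± 20.2).

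No Arntl change from 0 h was called. The largest were -0.42 ± 0.30 at 24 h (limma adjusted p = 0.540), lower in 3 of 3 experiments, and -0.42 at 30 h (adjusted p = 0.560), where only experiment 1 was lower. The F test gave an adjusted p of 0.999. Without experiment 1 at 18 h and 30 h the linear trend from 6 h to 48 h was called, 0.30 ± 0.09 per day (limma adjusted p = 0.0369, or 0.00710 with the block). The trend was not called over all arrays (0.12 per day, adjusted p = 0.718). It was called without the whole of experiment 1 too (adjusted p = 0.0375), but that fit drops the same arrays and is no separate test. Those arrays held the highest Arntl value of experiment 1, at 18 h, and its lowest, at 30 h. They were singled out with these values known. A steeper trend without them follows from that choice, and these trend calls are given as a description.

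**Figure D3:**
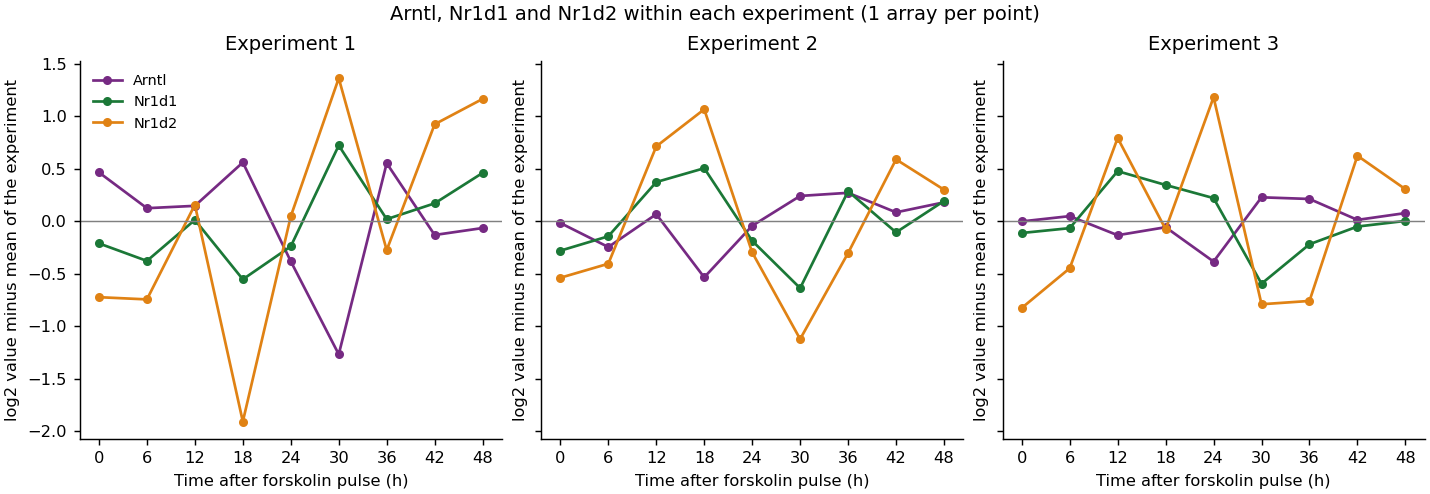
Log2 value minus the mean of its experiment against hours after the pulse, 1 panel per experiment and 1 array per point, for Arntl, Nr1d1 and Nr1d2. In experiment 1 Arntl is highest at 18 h, where Nr1d2 is lowest, and lowest at 30 h, where both receptors are highest. In experiment 2 Arntl is lowest at 18 h, where both receptors are highest, and both receptors are lowest at 30 h.

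Clock, the partner of ARNTL, was called in no test. Probe set 92257_at read 350.1, 249.4, 276.1, 232.8, 295.3, 314.4, 242.0, 299.9 and 279.8 in experiment 1. In experiment 2 it read 225.7, 203.9, 185.1, 172.3, 168.9, 180.2, 220.3, 283.5 and 213.3. In experiment 3 it read 159.4, 171.7, 183.9, 164.8, 244.3, 227.1, 161.5, 276.2 and 302.1. Highest over lowest array came to 1.50, 1.68 and 1.90 in the 3 experiments, with the extremes at different times. The changes from 0 h ran from -0.34 ± 0.24 at 18 h (limma adjusted p = 0.496) to 0.21 at 42 h (adjusted p = 0.736), and the F test gave an adjusted p of 0.848. The largest difference between times, named after its value was seen, was of 42 h above 18 h, 0.55 ± 0.24 in 3 of 3 experiments. Its limma p was 0.0306 before adjustment, and it was not called. With the block its adjusted p was 0.246. None of its comparisons was called with the block, without experiment 1 at 18 h and 30 h, or with both.

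Leaving out those 2 arrays moved the counts over the 5 probe sets. The F test then called 2 (6.9% of all probe sets), 10 of 40 changes from 0 h were called (6.63% of all), the linear trend called 2 (6.32%), and 0 of 20 differences 1 day apart (0.208%) and 0 of 10 between opposite phases (0%) were called by limma, where 4 and 3 were below 0.05 before adjustment. In the fit that also had the block, the F test called 3 (25.1%), 13 of 40 changes from 0 h were called (17.5%), and so were 1 of 20 differences 1 day apart (2.68%), 3 of 10 between opposite phases (0.919%) and 2 trends (17%). All 7 Rora changes called over all arrays were called in both of these fits. Because the arrays were singled out with the values of Arntl, Nr1d1 and Nr1d2 known, the calls gained by these genes are given as a description. Setting them beside the shares of all probe sets is no test.

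**Figure D4:**
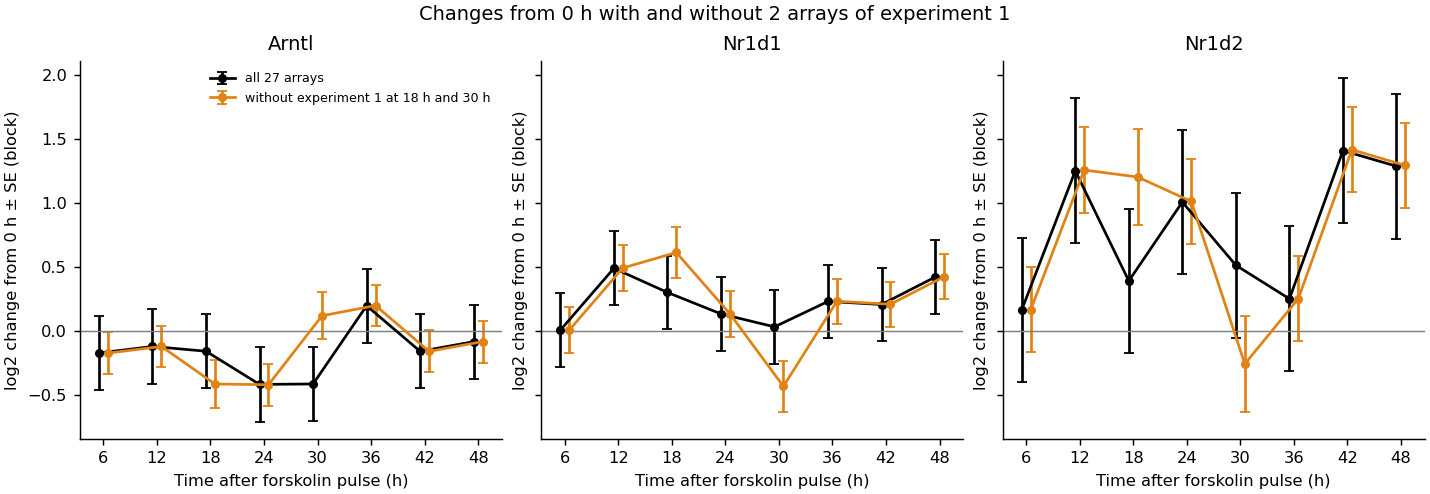
Log2 change from 0 h with its standard error, experiment as a block, for Arntl, Nr1d1 and Nr1d2 against hours after the pulse, with all 27 arrays (black) and without experiment 1 at 18 h and 30 h (orange). The 2 curves part at 18 h and 30 h; for Nr1d2 at 18 h the orange point is at 1.20.

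A 24 h cosine beside a linear trend was fitted to the 24 arrays from 6 h to 48 h. It called 0 of the 5 probe sets and 0% of all 7453 by limma, where 248 probe sets, Rora alone among the members, were below 0.05 before adjustment. The blocked fit called 0% too, where 783 were. Without experiment 1 at 18 h and 30 h it called 1 probe set (0.0134%), or 3 with the block (0.0403%), and no member in either. Before adjustment 204 and 668 probe sets were then below 0.05, among them 3 and 4 of the 5 members. Without the block Arntl then ranked 11 and Nr1d2 18 of 7453, against 1601 and 3815 over all arrays. The 2 arrays were left out with the values of these genes on them known, so the higher ranks are given as a description. The fitted amplitudes over all arrays were 0.27 ± 0.09 for Rora with a peak at 18.6 h, 0.26 ± 0.25 for Nr1d2, 0.18 ± 0.11 for Arntl, 0.12 ± 0.13 for Nr1d1 and 0.08 ± 0.08 for Clock. The Rora adjusted p was 0.242 with the block.

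Within single experiments a mean, a cosine, a sine and a slope were fitted by least squares, with no error computed. The fit of experiment 1 without 18 h and 30 h rests on 6 arrays, left out with the values known. Its Arntl slope was 0.35 per day, against -0.26 with all 8 arrays, so its peak times are loosely fixed. The cosine placed the genes as follows. Arntl peaked at 8.4 h in experiment 2 and 9.2 h in experiment 3, and at 16.3 h in experiment 1, or 8.9 h there without 18 h and 30 h. Nr1d2 peaked at 18.0 h and 20.7 h in experiments 2 and 3, and at 6.1 h in experiment 1, or 19.6 h without those arrays. Nr1d1 peaked at 16.5 h and 19.0 h in experiments 2 and 3 and at 7.2 h in experiment 1. Without the 2 arrays its amplitude in experiment 1 was 0.05 and its peak was at 11.3 h. The Rora peaks lay between 17.5 h and 19.7 h in the 3 experiments with all their arrays. The Clock peaks were scattered, at 2.9 h, 12.0 h and 0.1 h.

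Pooled over experiments without the 2 arrays, the Nr1d2 amplitude was 0.76 ± 0.19 with a peak at 19.2 h (limma adjusted p = 0.952, or 0.239 with the block). The Arntl amplitude was then 0.30 ± 0.07 with a peak at 9.1 h (adjusted p = 0.875, or 0.173 with the block), and that of Nr1d1 0.31 ± 0.13 with a peak at 17.8 h. None passed the threshold, and the arrays had been left out with the values of these genes on them known.

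**Figure D5:**
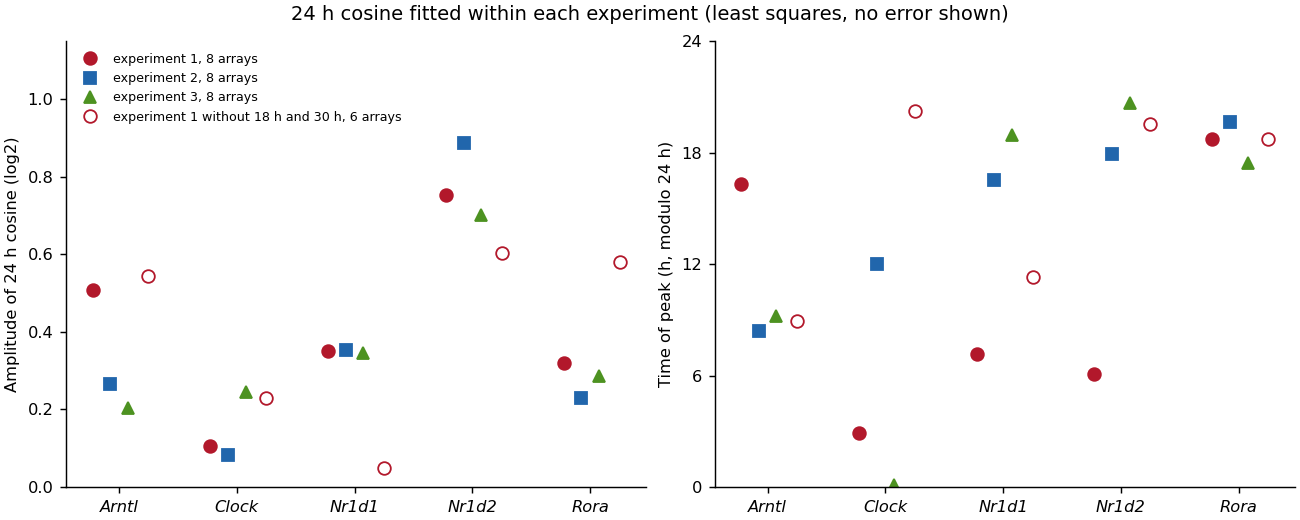
Amplitude (left, log2 units) and peak time (right, hours modulo 24 h) of a 24 h cosine fitted to the 8 arrays from 6 h to 48 h of each experiment, with experiment 1 also without 18 h and 30 h (open circles). The open circles rest on 6 arrays each, left out with these values known; they lie at 8.9 h for Arntl, 19.6 h for Nr1d2 and 11.3 h for Nr1d1.

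Across the 27 arrays, after the mean of each experiment was subtracted, Nr1d1 and Nr1d2 moved together (Pearson r = 0.83, and 0.92, 0.82 and 0.69 within experiments 1, 2 and 3). Arntl ran opposite to both, with r = -0.66 to Nr1d2 and -0.58 to Nr1d1, negative in each experiment. Without the 2 arrays these were 0.78, -0.55 and -0.37. To Arntl, Rora had an r of -0.07 and Clock of -0.10. Rora had an r of 0.46 to Nr1d2 (0.50, 0.37 and 0.51 within experiments 1, 2 and 3, and 0.58 without the 2 arrays). To Nr1d1 its r was 0.26 and to Clock 0.10. These are descriptions of arrays that share experiments and time points.

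Among 5638 other genes measured on the same arrays, those most like Nr1d2 were Dbp (r = 0.82), Per3 (0.78) and Hoxc8 (0.72). Dbp encodes a PAR bZIP factor and Per3 a period protein, both E-box genes of the clock, and Hoxc8 is a homeobox gene. Dbp (0.69) and Hoxc8 (0.65) were also among the 3 most like Nr1d1, with the translation factor gene Eif3f (0.68). Without experiment 1 at 18 h and 30 h, r to Nr1d2 was 0.83 for Dbp, 0.76 for Per3 and 0.57 for Hoxc8. To Nr1d1 it was then 0.63 for Dbp, 0.51 for Hoxc8 and 0.70 for Eif3f. Dbp read 197.8, 337.2 and 165.6 at 18 h in experiments 1, 2 and 3, and 1149.4, 12.7 and 77.6 at 30 h. It was thus high in experiment 1 on the same array as Nr1d1 and Nr1d2. The genes most like Arntl were Desi1 (0.70), Th (0.69) and Ifitm1 (0.67). Ifitm1 owed its place to experiment 1, with r = 0.87 there and -0.05 and -0.27 in experiments 2 and 3. Desi1 and Th had r of 0.30 and 0.26 in experiment 2 and at least 0.76 in the others. Without the 2 arrays the 3 genes had r of 0.56, 0.54 and 0.33. The most opposite gene to Arntl was Tef, another PAR bZIP factor (r = -0.85), named after its value was seen. Tef read 717.7, 2123 and 2103.9 at 18 h in experiments 1, 2 and 3, and 2653.3, 895.4 and 1340.7 at 30 h. Its r without the 2 arrays is not given here.

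For Rora the likeness was closer: Crabp1 (r = 0.94), which binds retinoic acid, Trio (0.92), a guanine nucleotide exchange factor, and Ly6e (0.92). Each had an r of at least 0.86 within every experiment. Crabp1 read 3959.9, 5434.5 and 3711.4 at 0 h and 14960.1, 12050.4 and 9456 at 48 h in the 3 experiments. The most opposite was Tagln, an actin-binding protein gene (r = -0.93), named after its value was seen. The genes most like Clock were Vamp2 (0.65), Mia3 (0.64) and Srsf10 (0.60).

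The partners, regulators and targets of these genes were read from lists of known genes. Over all 5643 genes, each by its brightest probe set, 9.29% were higher and 7.39% lower than at 0 h at 1 or more times, or 22.6% and 19.8% with the block, and the median change at 24 h was 0.02. Among 7 measured bHLH-PAS relatives of Arntl and Clock, 1 was higher, 1 lower and 5 neither, with a list median of 0.23 at 24 h. Ahr, the dioxin receptor, rose by 1.69 ± 0.43 at 48 h (limma adjusted p = 0.0144). Arnt, the common partner of that family, was lower at all 8 times, by -0.92 ± 0.14 at 48 h (adjusted p = 0.000108).

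Of 11 other nuclear receptor genes 3 were higher (4 with the block), 2 lower and 6 neither, with a median of 0.05 at 24 h. Nr2f1, an orphan receptor, changed by -1.46 ± 0.29 at 36 h (limma adjusted p = 0.00218), Rara, a retinoic acid receptor, by 0.99 at 24 h (adjusted p = 0.00501) and Nr3c1, the glucocorticoid receptor, by 0.93 at 48 h (adjusted p = 0.0172). Of 7 cofactors of REV-ERB and ROR proteins, 1 was higher and 6 were neither, with a median of 0.22. The exception was Tbl1xr1, a subunit of the NCOR complex, at 1.17 ± 0.25 at 18 h (adjusted p = 0.00339). With the block 3 of the 7 were higher.

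Of 15 measured ROR element targets, 2 were higher, 3 lower and 10 neither (4 higher and 7 lower with the block), with a median of -0.23 at 24 h. The largest changes were of Nfil3, a bZIP repressor, at -1.98 ± 0.35 at 42 h (limma adjusted p = 0.000668), Cry1, at -1.57 ± 0.25 at 12 h (adjusted p = 0.000223), and Scd1, a fatty acid desaturase, at -1.42 at 18 h (adjusted p = 0.00834). Nfil3 and Cry1 were read from probe sets whose suffix marks probes shared within a gene family, so related transcripts may add to them. The Ly6e probe set carries the same suffix, and those of Arnt and Crem carry the suffix of the brighter Rora probe set. Of 6 E-box repressors of the clock, 1 was higher, Per3 at 1.22 ± 0.37 at 24 h (adjusted p = 0.0498), 1 lower, Cry1, and 4 neither, with a median of -0.05. With the block 2 were higher and 1 lower.

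Of 6 E-box output genes, 1 was higher, 2 lower and 3 neither (2 higher and 3 lower with the block), with a median of -0.08 at 24 h. Pnp, a purine phosphorylase, changed by -2.42 ± 0.23 at 48 h (limma adjusted p = 2.15e-07), Usp2, a ubiquitin protease, by -1.98 at 6 h (adjusted p = 0.000445) and Tef by 1.31 at 24 h (adjusted p = 0.0468). Among 17 modifiers of clock proteins 2 were lower and 15 neither, with a median of 0.00: Cdk1, a cell cycle kinase, at -1.57 ± 0.45 at 48 h (adjusted p = 0.0329) and Prkca, protein kinase C alpha, at -0.76 at 36 h (adjusted p = 0.0118). With the block 1 was higher and 5 lower.

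Among 12 measured genes of the cyclic AMP response, which forskolin engages, 5 were lower than at 0 h (6 with the block) and 7 neither, with a median of -0.50 at 24 h. Nr4a1, an immediate early nuclear receptor, changed by -1.59 ± 0.44 at 36 h (limma adjusted p = 0.0257), Crem, a cyclic AMP responsive factor, by -1.38 at 18 h (adjusted p = 0.00620) and Pde4b, which breaks down cyclic AMP, by -1.17 at 48 h (adjusted p = 0.00193). These genes share the 0 h arrays with the Rora changes, and 0 h was the end of the pulse.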

How the data were processed

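The authors deposited probe set intensities of 27 arrays on a linear scale. For the algorithm that summarised the probes, no name is given in the sources used here. The mean after leaving out 2% at each end was 500.3 on every array, so the arrays had been scaled before deposit. Detection calls were not used. The precision is limited by the number of arrays.

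Log2(intensity + 12.1), with the pseudocount at the 10th percentile, was quantile normalized. Controls (66 of 12488 probe sets), then probe sets whose mean log2 value was under the 40th percentile, were left out, which kept 7453. limma 3.58.1 in R 4.3.3 fitted 9 time means, or cosine, sine and linear time, to all probe sets, with an intensity trend and Benjamini-Hochberg adjustment. The code was tested on simulated data. Deviations from time means correlated in every pair of arrays of the same experiment (r from 0.135 to 0.642), so the experiment numbers paired the samples. Block values stand beside the member results whose call they change, and not beside every other result.

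The members, lists and settings were chosen with earlier results of these data known, among them the choice to leave out 2 arrays; steps between neighbouring times were added after the data were seen. Named genes are all members, per member the 3 genes with the highest r, and per list up to 3 called genes with the largest change. Settings varied were the scaling, pseudocount, filter, variance model, array weights, block and arrays left out. The labels call the experiments biological replicates of 1 cell line.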

Additional observations from a re-analysis of the deposited data

How the results depend on the processing

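Counts of calls over the 5 probe sets are given. Leaving out 1 experiment at a time moved the F test calls (1 over all arrays) from 0 to 1, the changes from 0 h (7) from 1 to 7, those 1 day apart (0) from 0 to 1, and the trends (1) from 0 to 2. The F test and the trend called none without experiment 2 or without experiment 3. These counts are from fits without the block. With the experiment as a replicate block there was 1 call 1 day apart, 1 between opposite phases (0 without it) and 1 step (0 without it), and it changed no other count. Array weights gave 1 call 1 day apart and 1 between opposite phases, and centring each array on its median gave 1 between opposite phases. Without the filter 0 trends were called. Without experiment 1 at 18 h and 30 h the F test called 2 and the trend 2; with the replicate block added, these were 3 and 2, with 13 changes from 0 h, 1 call 1 day apart, 3 between opposite phases and 1 step. Without experiment 1 and with the replicate block the counts were 3 for the F test, 1 for 1 day apart, 2 for opposite phases and 2 for the trend, in a setting chosen after seeing the data. The cause of these moves was not tested. Rhythm calls of members were 0 in every setting run. Of the single values under all settings, 1702 kept their side of the threshold, 30 gained a call, 13 lost one, all of Rora, and none that was called changed sign.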
